A study of Mus musculus with 17 samples.

Results

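Tumor-bearing mice were compared with tumor-free mice across the transcripts of the diaphragm, the main muscle of breathing. All 17 mice of the series entered: 7 carried tumors of Lewis lung carcinoma (LLC) cells, a mouse lung cancer line grown under the skin of the flanks, and 10 carried none. Each arm thus holds mice with either injection. LLC (n = 3) and Control (n = 5) mice received mock injections into the peritoneal cavity, and LLC + rFibcd1 (n = 4) and Control + rFibcd1 (n = 5) mice received rFibcd1, a recombinant form of the secreted muscle protein Fibcd1. All were male C57BL/6J mice of 4 months, and the tumors came from 1 transplanted cell line rather than arising in the host. Injection entered the model as a factor, so that a difference reported for the tumor is the one within injections, averaged over both.

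Levels were deposited as TPM, the reads of a gene divided by its length and scaled so that each mouse sums to 1e+06. Of 47643 genes in the table, 13305 had at least 1 TPM in at least 3 mice and were tested. Differences are given as log2(TPM + 1), tumor-bearing minus tumor-free, with the standard error and the adjusted p of limma over all 13305 genes, and a gene was called at an adjusted p under 0.05. Adding 1 TPM understates the change of genes near that level. The low values stood for 23.9 to 26.7 reads per TPM in a gene of 1 kilobase, which put the libraries at 50.7 to 54.5 times 1e+06 reads. The labels treat each library as a separate mouse, and the p-values measure the spread between these mice. Bulk tissue was measured, so fewer cells of a type and less RNA per cell cannot be told apart in any value here.

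Skeletal muscle loses mass in cancer cachexia, the wasting that accompanies many tumors. Inflammatory cytokines, the myostatin and activin ligands, glucocorticoids and falling anabolic signals are known to act on the fiber, and the ubiquitin-proteasome system and autophagy to degrade its proteins. The diaphragm contains fast and slow fibers rich in mitochondria, together with vessels, resident leukocytes, fibroblasts and the mesothelium that covers both surfaces.

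Of the 13305 genes tested, 6032 (45.3%) were called, 5294 higher (39.8%) and 738 lower (5.55%) in tumor-bearing mice. Complete separation was less common: in 301 genes (2.26%) the 7 and the 10 values did not overlap, 231 higher (1.74%) and 70 lower (0.526%). Leaving out LLC + rFibcd1 replicate 4 raised that count to 548, and leaving out replicate 1 of the same group raised it to 500. Among genes without overlap, 93 were higher and 160 lower after median-ratio scaling, 132 and 126 without mitochondrially encoded genes, and 61 and 195 after quantile normalization. The median gene was itself 0.14 higher (log2), and the balance of higher and lower changed with the scaling. Higher genes made up 87.8% of the calls as deposited, 70.5% after rescaling without mitochondrially encoded genes, 49.1% after median-ratio scaling and 35.3% after quantile normalization. In all 4 scalings, 2407 genes (18.1%) were called with the same sign, a summary chosen after seeing the data. Mitochondrially encoded genes were judged in the 3 scalings that hold them. With the mean of a B cell list as a covariate, 713 genes (5.36%) were called. The covariate was made of genes themselves higher with the tumor (15 of 15 called, median 1.81), so it takes up part of the tumor difference. A call lost with it, here and below, may reflect that overlap, and the part of B cells was not tested. The counts of each gene list below are to be read against these shares of all genes. A gene low in tumor-free mice can pass the filter through tumor-bearing mice alone, which favors a higher call. Where a single gene is said to lose its call, the scalings and the mice left out are named, and not every other setting.

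The shares of TPM taken by a few gene classes moved with the tumor. Mitochondrially encoded transcripts held 44.2% ± 1.82 of TPM in tumor-bearing mice (SD, n = 7) and 47.4% ± 1.52 in tumor-free mice (SD, n = 10, adjusted p = 0.0034, exact permutation within injection, two-sided, 4 shares). The 10 most abundant genes held 42.2% ± 1.81 and 45.0% ± 1.49 (adjusted p = 0.0034, same exact test). Immunoglobulin transcripts ranged from 0.0889% to 2.68% (median 1.63%) with a tumor and from 0.00308% to 1.21% (median 0.260%) without (adjusted p = 0.00491, same exact test). Globin transcripts ranged from 1.41% to 4.68% and from 0.384% to 2.08% (adjusted p = 0.0106, same exact test), and LLC replicate 3 held the highest value. Without that mouse the globin difference was 0.663 percentage points in place of 1.08 (adjusted p = 0.0476, same exact test). All 4 shares overlapped between the groups. The scalings and the covariate named above change the fit, but the part of these shares in the gene differences was not tested.

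**Figure D1:**
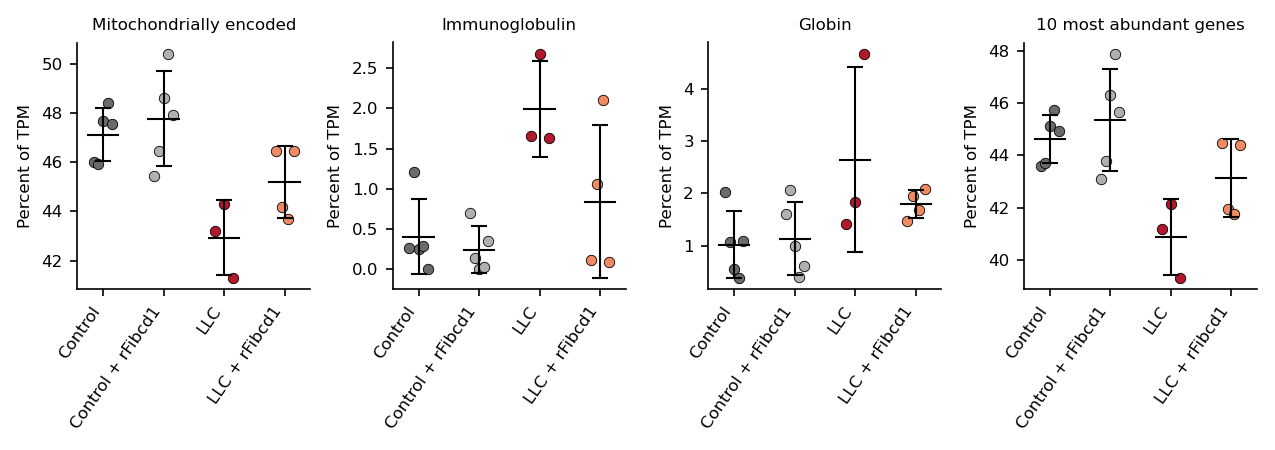
Percent of TPM in each mouse (points) for mitochondrially encoded, immunoglobulin and globin transcripts and for the 10 most abundant genes, by group, with the mean (line) and SD (bars). Tumor-bearing mice ranged from 41.3% to 46.5% mitochondrially encoded and tumor-free mice from 45.4% to 50.4%.

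The libraries were checked for markers of skeletal muscle, which cannot tell the diaphragm from other muscles. Ckm, muscle creatine kinase, stood at 4216 to 4970.4 TPM (median 4625) in tumor-bearing and 4932 to 5701 TPM (median 5377) in tumor-free mice, and the list of myofiber identity genes summed to 61458 to 74596 TPM in tumor-bearing and 71761 to 81160 TPM in tumor-free mice, so the fiber markers were abundant in every library. Control + rFibcd1 replicate 1 stood apart among the tumor-free mice: it held the highest value of its group, far from the other 4, for 16 genes described here, among them Cd79a, Adgre1 and Adipoq. Without it, 7033 genes were called and 512 did not overlap. Without LLC replicate 3, 4695 were called.

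The 12 higher and 12 lower genes with the largest differences, among those that separated all 7 from all 10 mice and averaged at least 5 TPM in either arm, are described first. Each was called after leaving out any of the 17 mice and in every scaling that holds it, which is all 4 except for mt-Nd6, which was run in 3 and is absent from the scaling without mitochondrially encoded genes. The separation and the size of the difference were part of the rule that chose them, and the separation fixes their sign within each injection. Positions are those of GRCm38 in GENCODE vM21.

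Receptors for cytokines and chemokines were among the higher genes. Csf2rb2 (chromosome 15, 78282507 to 78305721, minus strand), a mouse receptor beta chain for interleukin 3, ranged from 3.39 to 9.82 TPM (median 7.66) in tumor-bearing and 0.536 to 2.79 TPM (median 1.12) in tumor-free mice. It rose by 1.72 ± 0.20 (log2, SE, adjusted p = 0.000148). Its neighbor and near copy Csf2rb, the shared beta chain of the interleukin 3, interleukin 5 and GM-CSF receptors, ranged from 4.81 to 13.6 TPM (median 11.5) in tumor-bearing and 0.841 to 6.33 TPM (median 1.86) in tumor-free mice and rose by 1.72 ± 0.26 (log2, SE, adjusted p = 0.00061). The division of reads between the pair is uncertain, so their shared direction is not separate evidence for each. Only Csf2rb overlapped between the arms. Ackr1 (chromosome 1, 173331886 to 173333750), a chemokine-binding receptor of venules and red cells that does not signal as other chemokine receptors do, was at 4.69 to 12.7 TPM (median 7.44) in tumor-bearing and 1.39 to 4.03 TPM (median 2.47) in tumor-free mice, and rose by 1.39 ± 0.18 (log2, SE, adjusted p = 0.000251). Il4ra (chromosome 7, 125552120 to 125579474), the interleukin 4 receptor alpha chain, was at 9.17 to 16.01 TPM (median 12.7) in tumor-bearing and 4.14 to 7.71 TPM (median 5.37) in tumor-free mice, and rose by 1.04 ± 0.12 (log2, SE, adjusted p = 0.000146).

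Genes of innate sensing and its response were also among them. Ifitm1 (chromosome 7, 140967221 to 140969825), an interferon-induced membrane protein, ranged from 6.31 to 18.4 TPM (median 10.4) in tumor-bearing and 2.69 to 5.597 TPM (median 3.16) in tumor-free mice, and rose by 1.43 ± 0.19 (log2, SE, adjusted p = 0.000255). The highest tumor-free mouse lay under the lowest tumor-bearing mouse by a small margin. Tmem173, which encodes the DNA sensor adaptor STING, was at 8.42 to 18.02 TPM (median 15.98) in tumor-bearing and 4.002 to 8.17 TPM (median 6.096) in tumor-free mice, and rose by 1.14 ± 0.14 (log2, SE, adjusted p = 0.000194). Sbno2 (chromosome 10, 80056992 to 80105571), a transcriptional coregulator of the inflammatory response, was at 12.9 to 18.04 TPM (median 16.1) in tumor-bearing and 6.56 to 11.6 TPM (median 7.88) in tumor-free mice, and rose by 0.90 ± 0.10 (log2, SE, adjusted p = 0.000142). Litaf (chromosome 16, 10959275 to 11066157), a membrane protein of late endosomes induced by lipopolysaccharide, was at 17.7 to 24.2 TPM (median 20.9) in tumor-bearing and 7.24 to 15.9 TPM (median 11.2) in tumor-free mice, and rose by 0.80 ± 0.12 (log2, SE, adjusted p = 0.000639).

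The higher set also held 2 genes of the extracellular matrix. Eln (chromosome 5, 134702593 to 134747323), elastin, ranged from 21.03 to 39.3 TPM (median 25.4) in tumor-bearing and 8.54 to 18.9 TPM (median 14.4) in tumor-free mice and rose by 0.91 ± 0.17 (log2, SE, adjusted p = 0.00161). Postn (chromosome 3, 54361109 to 54391037), the matrix protein periostin, was at 6.57 to 15.2 TPM (median 9.25) in tumor-bearing and 4.04 to 6.29 TPM (median 4.596) in tumor-free mice and rose by 0.80 ± 0.13 (log2, SE, adjusted p = 0.000778), with its 3 highest values in the 3 LLC mice. Actn1 (chromosome 12, 80167547 to 80260371), the alpha-actinin of non-muscle cells, was at 15.6 to 31.5 TPM (median 17.6) in tumor-bearing and 7.45 to 12.1 TPM (median 10.6) in tumor-free mice and rose by 0.85 ± 0.12 (log2, SE, adjusted p = 0.000352). Plekho1 (chromosome 3, 95988429 to 95996001), a signaling adaptor, rose by 0.82 ± 0.09 (adjusted p = 0.000142) and Grrp1 (chromosome 4, 134251110 to 134254106) by 0.87 ± 0.12 (adjusted p = 0.000388). Both separated the arms: the lowest tumor-bearing mouse was at 17.7 TPM for Plekho1 and 14.9 TPM for Grrp1, whereas the tumor-free mice reached at most 14.5 TPM for Plekho1 and 12.6 TPM for Grrp1.

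**Figure D2:**
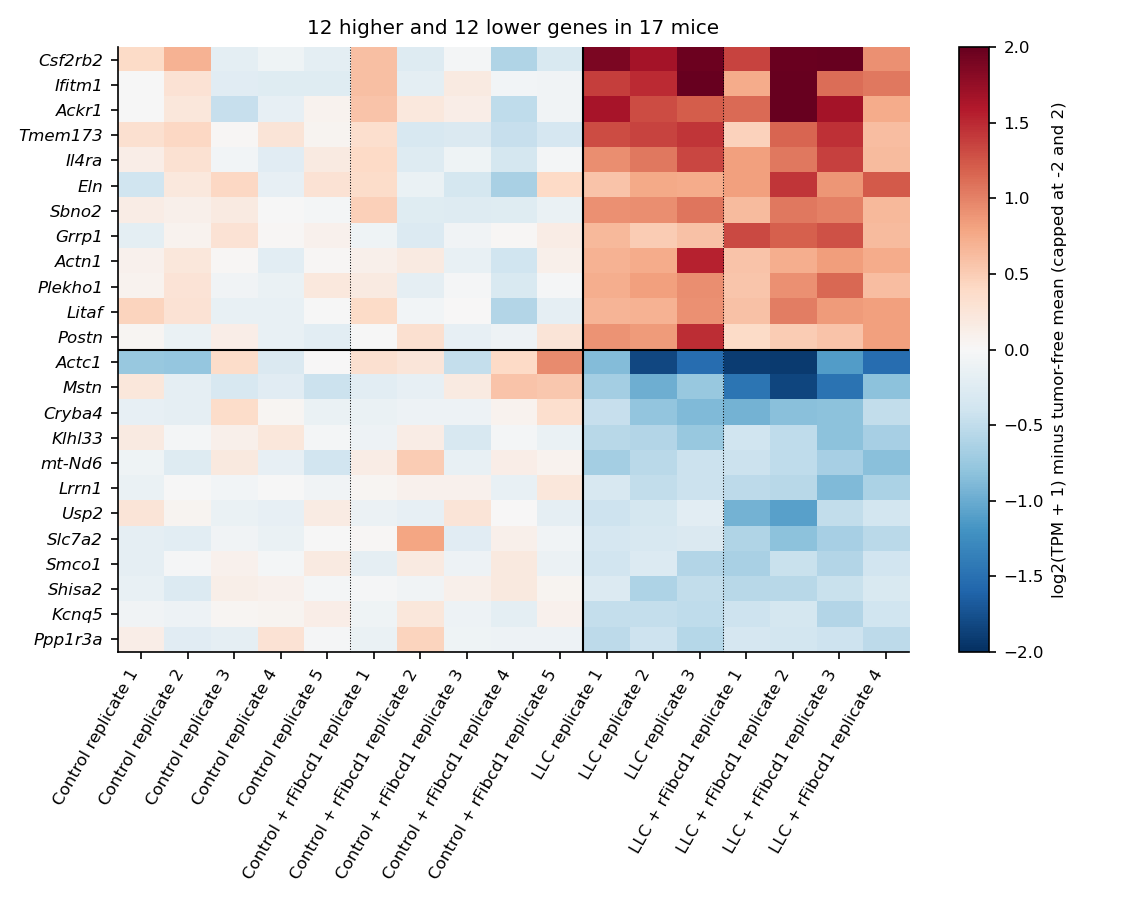
Heat map of the 12 higher and 12 lower genes (rows) in each mouse (columns), colored by log2(TPM + 1) minus the mean of the 10 tumor-free mice. The 7 tumor-bearing columns on the right of the solid line are red in every upper row and blue in every lower row, as the rule requires, with Csf2rb2 at 1.72 and Actc1 at -1.54 (fitted log2 difference) as the extremes.

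Among the lower genes, a sarcomeric actin and a growth inhibitor led. Actc1 (chromosome 2, 114047282 to 114053548, minus strand), the cardiac actin that skeletal muscle expresses in development and repair, ranged from 93.3 to 193 TPM (median 122) in tumor-bearing and 205 to 677 TPM (median 387) in tumor-free mice. It fell by 1.54 ± 0.23 (log2, SE, adjusted p = 0.00061). Its paralog Acta1, the main actin of adult fibers, was at 19855 to 23362 TPM (median 20244) in tumor-bearing and 21470 to 25160 TPM (median 23081) in tumor-free mice, and fell by 0.15 ± 0.04 (log2, SE, adjusted p = 0.0102), a call lost after quantile normalization. The reads of the 2 actins could be divided between near-identical coding sequences. Mstn (chromosome 1, 53061640 to 53068079), myostatin, the secreted inhibitor of muscle growth, ranged from 6.15 to 15.1 TPM (median 12.1) in tumor-bearing and 18.1 to 37.3 TPM (median 21.7) in tumor-free mice and fell by 1.14 ± 0.19 (log2, SE, adjusted p = 0.000984). Its difference was -0.61 ± 0.14 in mock-injected and -1.58 ± 0.24 in rFibcd1-injected mice (log2, SE), with an unadjusted p of 0.00639 for the interaction (adjusted p = 0.266, limma).

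Slc7a2 (chromosome 8, 40862396 to 40922308), a transporter of arginine and lysine, was at 4.95 to 7.58 TPM (median 6.21) in tumor-bearing and 7.98 to 17.2 TPM (median 8.997) in tumor-free mice and fell by 0.51 ± 0.13 (log2, SE, adjusted p = 0.00613), and was the sole gene of the 24 not called with the B cell covariate (adjusted p = 0.0785). Kcnq5 (chromosome 1, 21398403 to 21961942), a potassium channel, fell by 0.46 ± 0.06 (log2, SE, adjusted p = 0.000251). Lrrn1 (chromosome 6, 107529768 to 107570214), a leucine-rich repeat membrane protein, fell by 0.55 ± 0.07 (log2, SE, adjusted p = 0.000255), Shisa2 (chromosome 14, 59625308 to 59631660) fell by 0.47 ± 0.07 (adjusted p = 0.000391) and Smco1 (chromosome 16, 32271468 to 32274781) by 0.47 ± 0.07 (adjusted p = 0.000598). These 4 had narrow ranges: Shisa2, for example, was at 45.1 to 57.1 TPM (median 49.1) in tumor-bearing and 57.2 to 79.7 TPM (median 70.5) in tumor-free mice.

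Ppp1r3a (chromosome 6, 14713977 to 14755274), which targets protein phosphatase to glycogen in muscle, was at 25.1 to 29.4 TPM (median 27.9) in tumor-bearing and 32.1 to 51.3 TPM (median 35.1) in tumor-free mice and fell by 0.45 ± 0.09 (log2, SE, adjusted p = 0.00179). Usp2 (chromosome 9, 44067021 to 44095627), a clock-controlled deubiquitinase, was at 45.2 to 83.6 TPM (median 72.1) in tumor-bearing and 85.4 to 116 TPM (median 93.1) in tumor-free mice and fell by 0.53 ± 0.11 (log2, SE, adjusted p = 0.00241). Cryba4 (chromosome 5, 112246493 to 112252518), a beta crystallin, fell by 0.75 ± 0.10 (log2, SE, adjusted p = 0.000255) and Klhl33 (chromosome 14, 50888582 to 50897507), a Kelch-like protein, fell by 0.60 ± 0.07 (log2, SE, adjusted p = 0.000238). The mitochondrial genome contributed mt-Nd6, a complex I subunit, at 386 to 514 TPM (median 477) in tumor-bearing and 527 to 982 TPM (median 687) in tumor-free mice, which fell by 0.59 ± 0.10 (log2, SE, adjusted p = 0.00114). It is encoded on the opposite strand to its neighbors, and as the use of strand in the counting was not stated, its value is uncertain.

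The promoters of the leading genes were searched for 4 motifs. The motifs were TTCNNNGAA (the STAT dimer site), GGAATTTCC (an NF-kB site), GAGGAAGT (a site of the myeloid factor PU.1) and CTAAAAATA (a MEF2 site), read on both strands from 250 bases before to 50 after the start, in RefSeq sequences of GRCm38.p6. The STAT letters lay in the promoters of Csf2rb2, Sbno2 and, on the lower side, Smco1, 3 of the 20 leading genes with an entry, beside 8.41% of tested genes and 9.55% of all genes with one. The stretch of 250 bases before the start of each is shown so that the match, in capitals, can be seen in its context.
Csf2rb2, chr15:78305722-78305971, minus strand: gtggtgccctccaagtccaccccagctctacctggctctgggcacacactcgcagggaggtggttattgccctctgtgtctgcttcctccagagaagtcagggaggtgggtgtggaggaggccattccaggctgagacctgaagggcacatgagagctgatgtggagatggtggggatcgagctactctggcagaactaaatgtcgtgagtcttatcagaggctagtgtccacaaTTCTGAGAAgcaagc
Sbno2, chr10:80102703-80102952, minus strand: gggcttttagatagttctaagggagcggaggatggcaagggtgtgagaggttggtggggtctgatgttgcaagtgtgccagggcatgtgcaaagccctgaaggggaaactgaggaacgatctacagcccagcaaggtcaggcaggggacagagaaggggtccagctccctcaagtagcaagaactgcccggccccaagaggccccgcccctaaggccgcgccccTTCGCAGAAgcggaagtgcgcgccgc
Smco1, chr16:32271230-32271479, plus strand: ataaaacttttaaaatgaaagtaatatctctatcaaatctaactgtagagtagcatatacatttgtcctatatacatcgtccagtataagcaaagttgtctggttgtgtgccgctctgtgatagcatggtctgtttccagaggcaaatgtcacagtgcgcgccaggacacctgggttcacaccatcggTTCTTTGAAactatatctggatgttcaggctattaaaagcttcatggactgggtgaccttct
A second listed start of Sbno2 held the same motif, and the promoter of Csf2rb2 also held the PU.1 letters after its start. Counted by promoter, since a gene can have several, the STAT letters were found in 8.3% of all 32851 promoters of that length, in 6.99% of the 12582 of tested genes, in 4.86% of the 247 promoters of higher genes without overlap and in 6.45% of the 62 of lower genes without overlap. The PU.1 letters were in 3.2% of all, 3.12% of the tested, 3.64% of the higher and 6.45% of the lower promoters. The NF-kB and MEF2 letters were in 0.317% and 0.517% of all promoters, in 0.381% and 0.342% of those of tested genes, and in 1 each of the higher and 0 of the lower promoters. These are matches of letters, not sites of binding.

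Neutrophil genes had some of the larger differences. Of 9 tested members, 8 were called higher and 0 lower, with a median of 1.09 beside 0.14 over all genes, and the summed level ran from 58.4 to 234 TPM in tumor-bearing and 7.68 to 87.3 TPM in tumor-free mice. Of 16 listed genes 9 passed the filter, and those low in tumor-free mice could pass it through tumor-bearing mice alone, which favors higher calls. S100a8 and S100a9, the calprotectin subunits abundant in neutrophil cytoplasm, ranged from 12.2 to 56.9 TPM (median 23.4) in tumor-bearing and 0.171 to 20.5 TPM (median 1.82) in tumor-free mice and from 25.5 to 125 TPM (median 47.97) in tumor-bearing and 0.532 to 46.3 TPM (median 3.97) in tumor-free mice. S100a8 rose by 2.80 ± 0.50 (log2, SE, adjusted p = 0.00137) and S100a9 rose by 3.12 ± 0.56 (log2, SE, adjusted p = 0.00137). For both, 1 tumor-free mouse, Control + rFibcd1 replicate 3, overlapped with the tumor-bearing mice.

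Cxcr2, the receptor that draws neutrophils out of the bone marrow, was at 0.849 to 2.84 TPM (median 1.505) in tumor-bearing and 0.0246 to 1.13 TPM (median 0.1397) in tumor-free mice and rose by 1.09 ± 0.16 (log2, SE, adjusted p = 0.00061). Csf3r, the G-CSF receptor, was at 3.12 to 9.13 TPM (median 4.25) in tumor-bearing and 0.623 to 3.59 TPM (median 0.864) in tumor-free mice and rose by 1.32 ± 0.24 (log2, SE, adjusted p = 0.00132). Of the 9, 6 were still called higher with the B cell covariate, including all 4 genes named here. Granule genes of immature neutrophils such as Camp, Ngp and Ltf did not pass the filter on low values. By injection, 8 members were called in mock-injected and 0 in rFibcd1-injected mice, beside 33.4% and 1.83% of all genes higher in those fits, with medians of 1.17 and 1.02.

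Monocyte and macrophage genes were higher as well, 16 of 21 tested (median 0.71), but their summed level overlapped widely, from 556 to 1326 TPM in tumor-bearing and 289 to 2004 TPM in tumor-free mice. Chil3, a chitinase-like protein of activated and recruited macrophages, ranged from 1.38 to 15.7 TPM (median 5.02) in tumor-bearing and 0.144 to 4.21 TPM (median 0.248) in tumor-free mice and rose by 1.93 ± 0.32 (log2, SE, adjusted p = 0.000936). Ly6c2, of inflammatory monocytes, was at 1.86 to 8.14 TPM (median 4.67) in tumor-bearing and 0.683 to 3.401 TPM (median 1.32) in tumor-free mice and rose by 1.21 ± 0.24 (log2, SE, adjusted p = 0.00203). The pan-macrophage marker Cd68 rose by 0.88 ± 0.27 (log2, SE, adjusted p = 0.0175), whereas Adgre1, which encodes F4/80 of resident macrophages, had a difference of 0.53 ± 0.26 (log2, SE, adjusted p = 0.106) and was not called. Adgre1 was highest of all 17 mice in a tumor-free one, Control + rFibcd1 replicate 1, at 18.1 TPM, and without that mouse its difference was 0.75 (adjusted p = 0.000609, limma). Only 1 of the 21 was called with the B cell covariate.

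The list of cytokine receptors of myeloid cells also holds the cytokine Il1b. All 10 tested members of that list were called higher in all 4 scalings, with a median of 1.02, and 6 with the B cell covariate. Besides Csf2rb2 and Csf2rb, Il3ra, the specific interleukin 3 receptor chain, was at 4.504 to 9.03 TPM (median 7.03) in tumor-bearing and 2.298 to 4.99 TPM (median 3.83) in tumor-free mice and rose by 0.72 ± 0.11 (log2, SE, adjusted p = 0.000647). Il1b, the inflammatory cytokine interleukin 1 beta, was at 1.37 to 4.500 TPM (median 2.38) in tumor-bearing and 0.144 to 1.09 TPM (median 0.259) in tumor-free mice and rose by 1.33 ± 0.18 (log2, SE, adjusted p = 0.000288), without overlap between the arms but under the 5 TPM of the rule for leading genes. Il1r1, its signaling receptor, rose by 0.64 ± 0.12 (log2, SE, adjusted p = 0.00149).

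STAT3 and NF-kB are transcription factors downstream of interleukin 6 and of TNF. Of the interleukin 6 family list, 9 of 24 were called higher and 0 lower (median 0.38), close to the 39.8% higher over all genes, and 2 were called lower after median-ratio scaling and 2 after quantile normalization. The ligands Il6, Lif and Osm were below the filter. Osmr, the oncostatin M receptor, was at 5.07 to 7.26 TPM (median 6.16) in tumor-bearing and 3.06 to 4.53 TPM (median 3.93) in tumor-free mice and rose by 0.54 ± 0.07 (log2, SE, adjusted p = 0.000355). Stat3 itself was at 24.3 to 31.2 TPM (median 26.8) in tumor-bearing and 17.5 to 24.00 TPM (median 21.5) in tumor-free mice and rose by 0.38 ± 0.06 (log2, SE, adjusted p = 0.000761). Both separated all 17 mice by tumor. Bcl3, a nuclear partner of NF-kB and a STAT3 target, rose by 1.04 ± 0.19 (log2, SE, adjusted p = 0.00146). Socs3, the feedback inhibitor of STAT3, was at 8.97 to 14.8 TPM (median 11.7) in tumor-bearing and 3.41 to 13.3 TPM (median 6.14) in tumor-free mice and rose by 0.69 ± 0.23 (log2, SE, adjusted p = 0.0238), a call lost after median-ratio and quantile scaling and, at an adjusted p of 0.0511 and 0.0506, without LLC replicate 2 or LLC + rFibcd1 replicate 2.

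Of the TNF and NF-kB list, 15 of 18 were called higher and 0 lower (median 0.56). Tnfrsf1a, the main TNF receptor, was at 48.5 to 64.2 TPM (median 54.5) in tumor-bearing and 30.7 to 47.7 TPM (median 39.6) in tumor-free mice, without overlap, and rose by 0.52 ± 0.08 (log2, SE, adjusted p = 0.000787). Rela, the p65 subunit of NF-kB, was at 22.3 to 30.3 TPM (median 25.6) in tumor-bearing and 16.1 to 23.1 TPM (median 19.1) in tumor-free mice and rose by 0.39 ± 0.07 (log2, SE, adjusted p = 0.00114). Tnf was itself low, at 0.239 to 2.53 TPM (median 1.31) in tumor-bearing and 0.168 to 1.03 TPM (median 0.489) in tumor-free mice, and rose by 0.57 ± 0.19 (log2, SE, adjusted p = 0.0239), a call lost after quantile normalization, with no injection term (adjusted p = 0.0543), with the B cell covariate and without LLC replicate 1 or 3 (adjusted p = 0.0605 and 0.0564). With the B cell covariate 4 of the 18 were called, Tnfrsf1a and Rela among them (adjusted p = 0.0237 and 0.027).

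Lymphocyte genes had large and variable differences. All 15 tested B cell genes were called higher, with a median of 1.81, but 0 of them separated the arms, and their summed level ran from 30.7 to 683 TPM in tumor-bearing and 3.54 to 257 TPM in tumor-free mice. Cd79a, the signaling chain of the B cell receptor, ranged from 7.47 to 110.4 TPM (median 90.6) in tumor-bearing and 0.199 to 55.4 TPM (median 8.86) in tumor-free mice and rose by 2.44 ± 0.79 (log2, SE, adjusted p = 0.0206). The 3 LLC mice held Cd79a at 97.6, 90.6 and 110.3 TPM and the 4 LLC + rFibcd1 mice at 7.47, 52.6, 110.4 and 9.39 TPM, so that 3 of the 7 tumor-bearing mice lay within the tumor-free range. The covariate was made from these genes, and 0 of them were called with it.

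T and natural killer cell genes were higher too, with 14 of 15 called higher (median 1.01) and 0 with the B cell covariate. Cd3e, of the T cell receptor complex, ranged from 0.464 to 5.44 TPM (median 3.07) in tumor-bearing and 0.0558 to 1.82 TPM (median 0.402) in tumor-free mice and rose by 1.08 ± 0.29 (log2, SE, adjusted p = 0.00869). Cd4 rose by 1.09 ± 0.29 (log2, SE, adjusted p = 0.00884). Of the plasma cell list, 9 of 13 were called higher. Jchain, which joins the units of polymeric antibodies, ranged from 15.1 to 405 TPM (median 238) in tumor-bearing and 0.414 to 237 TPM (median 43.2) in tumor-free mice, with a difference of 2.49 ± 1.04 (log2, SE, adjusted p = 0.0615) that was called when any 1 of 5 mice was left out, among them Control + rFibcd1 replicate 1 (adjusted p = 0.029). Igha, the constant region of immunoglobulin A, rose by 2.24 ± 0.46 (log2, SE, adjusted p = 0.00245), from 1.81 to 39.2 TPM (median 11.8) in tumor-bearing and 0.105 to 5.78 TPM (median 1.76) in tumor-free mice, and single immunoglobulin genes carry the uncertainty of similar copies.

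Antigen presentation genes were called in nearly every case. All 10 MHC class II genes and 14 of 15 genes of MHC class I and the immunoproteasome were called higher, with medians of 1.22 and 0.69, and 0 of either list with the B cell covariate. Cd74, the invariant chain of MHC class II, ranged from 206 to 1028 TPM (median 876) in tumor-bearing and 128 to 525 TPM (median 237) in tumor-free mice and rose by 1.32 ± 0.33 (log2, SE, adjusted p = 0.00641). H2-Aa rose by 1.23 ± 0.31 (log2, SE, adjusted p = 0.00676). B2m, the light chain of MHC class I, was at 393 to 1014 TPM (median 854) in tumor-bearing and 293 to 667 TPM (median 477) in tumor-free mice and rose by 0.66 ± 0.20 (log2, SE, adjusted p = 0.0159), and H2-K1 rose by 0.84 ± 0.26 (log2, SE, adjusted p = 0.0176). The values of these 4 genes overlapped between the arms, and H2 genes resemble each other closely.

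Interferon-induced genes were called higher in 12 and lower in 0 of 22 (median 0.40), beside 39.8% higher over all genes. Ifitm3 was at 237 to 363 TPM (median 323) in tumor-bearing and 146 to 282 TPM (median 197) in tumor-free mice and rose by 0.62 ± 0.12 (log2, SE, adjusted p = 0.00188), next to its paralog Ifitm1 above. Irf7, a regulator of type I interferon genes, rose by 0.51 ± 0.11 (log2, SE, adjusted p = 0.00351), and Isg15, a ubiquitin-like modifier, rose by 0.53 ± 0.13 (log2, SE, adjusted p = 0.00552). Ifit1, an RNA-binding antiviral protein, was at 2.25 to 4.29 TPM (median 3.703) in tumor-bearing and 2.35 to 4.66 TPM (median 3.22) in tumor-free mice, with a difference of 0.09 ± 0.11 (log2, SE, adjusted p = 0.494) that turned negative after median-ratio and quantile scaling. A single member, 1 of 22, was called with the B cell covariate.

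Endothelial genes were called higher in most cases. Of 14 tested, 9 were called higher and 0 lower, with a median of 0.28, beside 39.8% higher over all genes, and 5 kept the call in all 4 scalings. In 4 the arms did not overlap, beside 1.74% of all genes. Pecam1, the junction protein CD31, ranged from 60.1 to 75.1 TPM (median 65.2) in tumor-bearing and 46.1 to 55.9 TPM (median 50.6) in tumor-free mice and rose by 0.39 ± 0.05 (log2, SE, adjusted p = 0.000255). Vwf, von Willebrand factor, was at 9.26 to 11.7 TPM (median 10.1) in tumor-bearing and 4.71 to 8.94 TPM (median 5.99) in tumor-free mice and rose by 0.68 ± 0.09 (log2, SE, adjusted p = 0.000255). Esam, an adhesion molecule of endothelial junctions, was at 38.1 to 46.5 TPM (median 42.3) in tumor-bearing and 28.6 to 34.95 TPM (median 32.3) in tumor-free mice and rose by 0.39 ± 0.05 (log2, SE, adjusted p = 0.000238). These 3 separated every tumor-bearing from every tumor-free mouse.

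Plvap, which forms the diaphragms of fenestrated and venular endothelium, was at 30.9 to 65.3 TPM (median 51.9) in tumor-bearing and 10.9 to 32.6 TPM (median 20.6) in tumor-free mice and rose by 1.18 ± 0.19 (log2, SE, adjusted p = 0.000787). Cdh5, the cadherin found in all endothelium, had a smaller difference: it was at 52.3 to 71.5 TPM (median 67.2) in tumor-bearing and 52.2 to 63.8 TPM (median 56.9) in tumor-free mice and rose by 0.16 ± 0.06 (log2, SE, adjusted p = 0.0422), a call lost in the 3 other scalings, with -0.01 after median-ratio scaling, and when any 1 of 11 mice was left out. Of the activated venule list, 9 of 9 were called higher (median 0.70). Lrg1, a secreted glycoprotein of venules and of the acute phase, was at 78.8 to 130.1 TPM (median 88.95) in tumor-bearing and 39.9 to 80.03 TPM (median 55.9) in tumor-free mice and rose by 0.75 ± 0.15 (log2, SE, adjusted p = 0.00216). With the B cell covariate 6 of the endothelial and 3 of the venule genes were called higher.

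Matrix genes were called near the rate of all genes, 9 of 23 higher and 0 lower, beside 39.8% of all genes. Col4a2, of the basement membrane, ranged from 53.1 to 73.1 TPM (median 63.1) in tumor-bearing and 34.01 to 55.5 TPM (median 43.3) in tumor-free mice and rose by 0.51 ± 0.09 (log2, SE, adjusted p = 0.00151). Mmp14, a membrane-bound matrix protease, rose by 0.75 ± 0.14 (log2, SE, adjusted p = 0.00198), and Lox, which crosslinks collagen and elastin, rose by 0.63 ± 0.13 (log2, SE, adjusted p = 0.00258). The fibrillar collagens that define the list were not called: Col1a1 was at 41.6 to 94.9 TPM (median 82.6) in tumor-bearing and 39.5 to 76.6 TPM (median 58.5) in tumor-free mice, a difference of 0.34 ± 0.17 (log2, SE, adjusted p = 0.105) that was called without Control + rFibcd1 replicate 5 or LLC + rFibcd1 replicate 1 (adjusted p = 0.0457 and 0.0269), and Col3a1 differed by 0.22 ± 0.19 (log2, SE, adjusted p = 0.346). Ly6a, the Sca-1 antigen of progenitors and endothelium, ranged from 179.7 to 253 TPM (median 234) in tumor-bearing and 114 to 174 TPM (median 125) in tumor-free mice and rose by 0.79 ± 0.09 (log2, SE, adjusted p = 0.000142), without overlap.

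**Figure D3:**
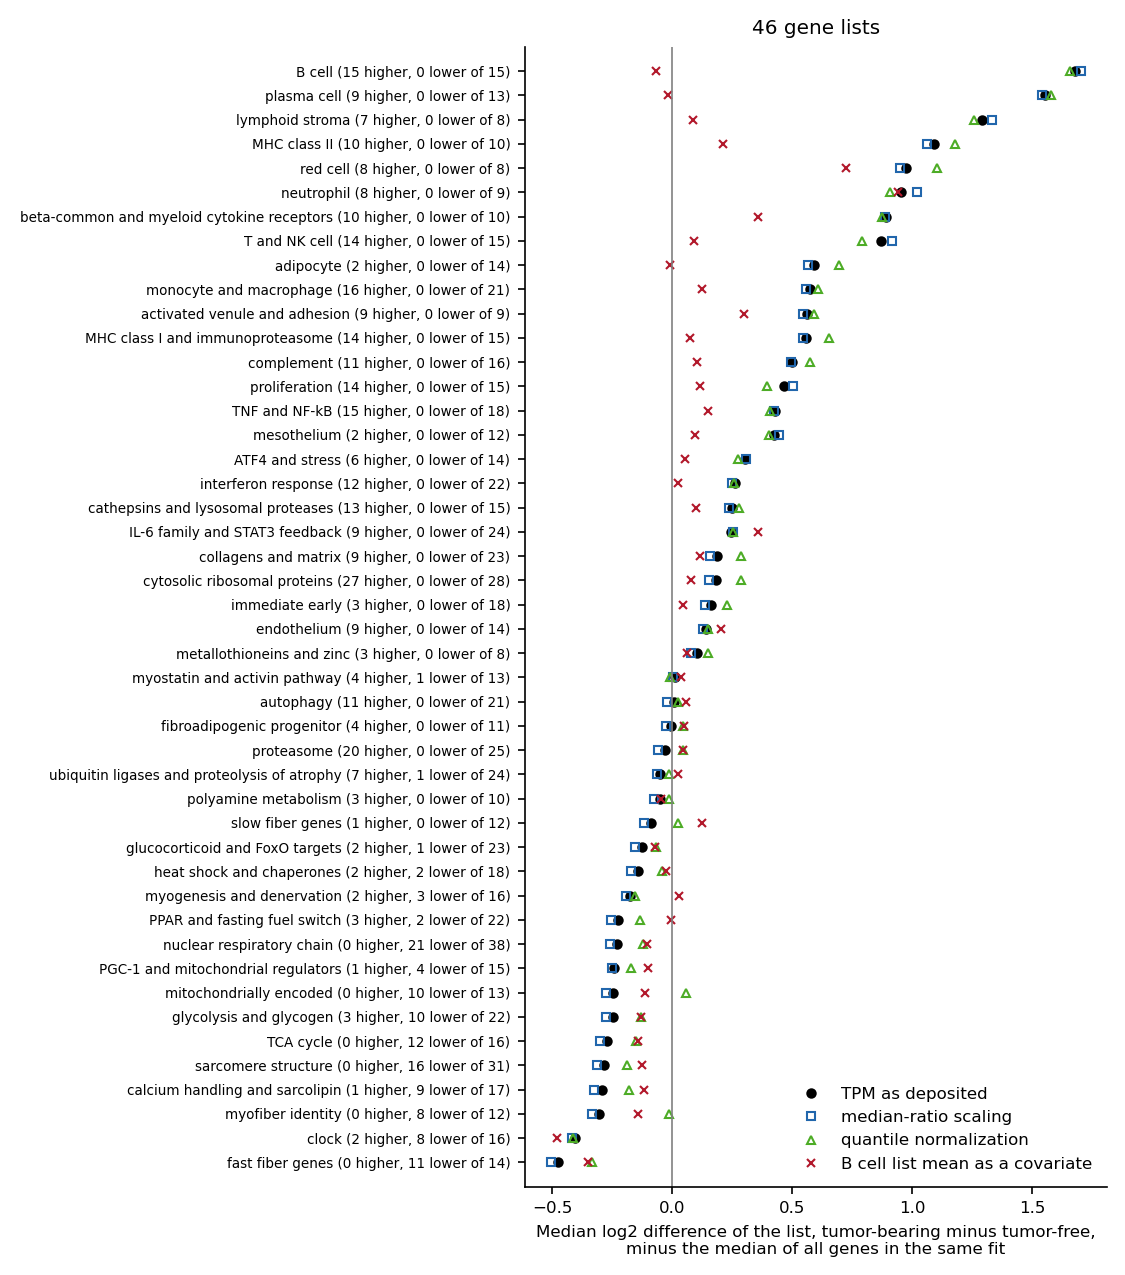
Median log2 difference of each of 46 gene lists, tumor-bearing minus tumor-free, relative to the median of all genes in the same fit. Circles show TPM as deposited, squares median-ratio scaling, triangles quantile normalization and crosses the B cell covariate. As deposited, the fast fiber list lay lowest, with 0 higher and 11 lower of 14 called, and the B cell list highest, with 15 higher of 15, a position it lost with the covariate made from it.

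Most fast fiber genes and part of the sarcomere genes were called lower, whereas 0 of 12 slow fiber genes were, as deposited. Of 14 fast fiber genes, 11 were called lower and 0 higher, beside 5.55% lower over all genes, with a median of -0.34, and 8 in all 4 scalings. Mylpf, the fast regulatory light chain, ranged from 3369 to 4220.0 TPM (median 3921) in tumor-bearing and 4609.9 to 5714 TPM (median 5063) in tumor-free mice and fell by 0.40 ± 0.05 (log2, SE, adjusted p = 0.000255). Tpm1, the alpha tropomyosin, was at 1024 to 1244 TPM (median 1140.0) in tumor-bearing and 1291 to 1585 TPM (median 1450.0) in tumor-free mice and fell by 0.36 ± 0.04 (log2, SE, adjusted p = 0.000194). Neither overlapped between the arms. Casq1, the fast calsequestrin that stores calcium, was at 521 to 676 TPM (median 552) in tumor-bearing and 638 to 801 TPM (median 755) in tumor-free mice and fell by 0.35 ± 0.06 (log2, SE, adjusted p = 0.00109). With the B cell covariate 6 of the 14 were called lower.

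The myosin heavy chains were tested one by one, and differences between them were not tested. Myh1, of type IIx fibers, was at 2527 to 4180.0 TPM (median 3099.6) in tumor-bearing and 3744 to 5154 TPM (median 4493) in tumor-free mice and fell by 0.50 ± 0.09 (log2, SE, adjusted p = 0.00128). Myh2, of type IIa fibers, was at 1339 to 1871 TPM (median 1459.5) in tumor-bearing and 1115 to 1805 TPM (median 1509) in tumor-free mice, a difference of 0.02 ± 0.09 (log2, SE, adjusted p = 0.849). Myh4, of type IIb fibers, was at 404 to 1571 TPM (median 1177) in tumor-bearing and 246 to 1804 TPM (median 921) in tumor-free mice, a difference of 0.02 ± 0.37 (log2, SE, adjusted p = 0.966). Myh7, of slow fibers, was at 236 to 456 TPM (median 339) in tumor-bearing and 260.2 to 485 TPM (median 321) in tumor-free mice, a difference of 0.04 ± 0.13 (log2, SE, adjusted p = 0.815). Of the 4, Myh1 alone was called in this fit, and the differences of the other 3 turned negative in each of the 3 other scalings and when certain single mice were left out. These genes lie in clusters of similar sequence, and reads could be divided between them. Of 12 slow fiber genes, 1 was called higher, Atp2a2, the slow calcium pump, at 509.5 to 801 TPM (median 603) in tumor-bearing and 399 to 623 TPM (median 483) in tumor-free mice, which rose by 0.39 ± 0.11 (log2, SE, adjusted p = 0.013), and the other scalings did not keep this call.

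Of 31 sarcomere genes, 16 were called lower and 0 higher (median -0.15), beside 5.55% lower over all genes, and 15 kept the call in all 4 scalings. Tcap, the titin cap of the Z-disc, was at 3882 to 5497 TPM (median 4822) in tumor-bearing and 5469 to 7048 TPM (median 6034) in tumor-free mice and fell by 0.34 ± 0.06 (log2, SE, adjusted p = 0.00165). Myoz1, a fast-fiber Z-disc protein, was at 588 to 787 TPM (median 739) in tumor-bearing and 806 to 994 TPM (median 911) in tumor-free mice and fell by 0.34 ± 0.05 (log2, SE, adjusted p = 0.000852). Ttn, titin, fell by 0.30 ± 0.08 (log2, SE, adjusted p = 0.00832), and Tnnt3, fast troponin T, fell by 0.22 ± 0.04 (log2, SE, adjusted p = 0.001), the latter call lost after quantile normalization. The B cell covariate left 3 of the 31 called lower.

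Excitation-contraction coupling showed the same direction, with 9 of 17 lower and 1 higher. Jph1 and Jph2, junctophilins that hold the sarcoplasmic reticulum to the T-tubule, were at 39.4 to 51.4 TPM (median 44.4) in tumor-bearing and 51.7 to 68.99 TPM (median 58.95) in tumor-free mice and at 114 to 149 TPM (median 125) in tumor-bearing and 133 to 177 TPM (median 163) in tumor-free mice. Jph1 fell by 0.39 ± 0.06 (log2, SE, adjusted p = 0.000486), without overlap, and Jph2 fell by 0.33 ± 0.06 (log2, SE, adjusted p = 0.00163). Atp2a1, the fast calcium pump, fell by 0.16 ± 0.04 (log2, SE, adjusted p = 0.00838), a call lost after quantile normalization. Sln, sarcolipin, which uncouples that pump, was at 567 to 1538 TPM (median 1059.7) in tumor-bearing and 651 to 1068 TPM (median 847) in tumor-free mice, a difference of 0.22 ± 0.19 (log2, SE, adjusted p = 0.338), of -0.46 ± 0.16 in mock-injected and 0.80 ± 0.13 in rFibcd1-injected mice (interaction, unadjusted p = 2.8e-05, adjusted p = 0.0588, limma).

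**Figure D4:**
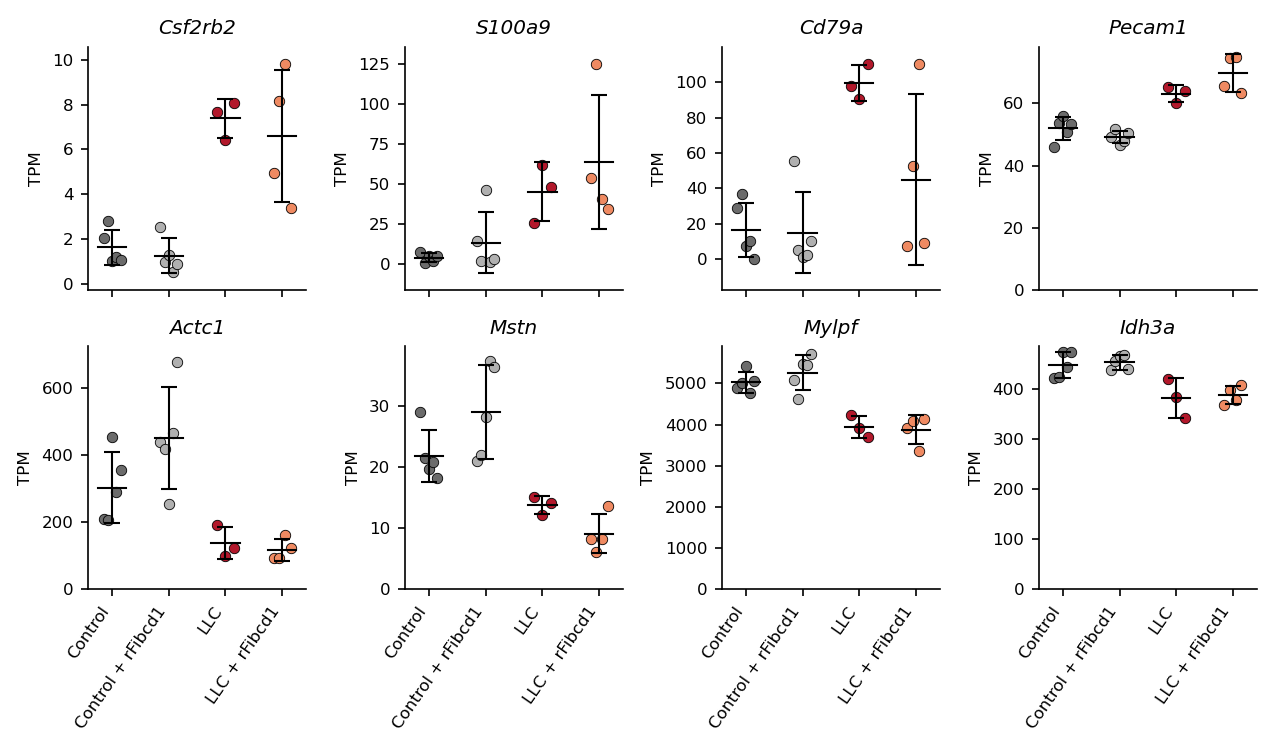
TPM of 8 genes in each mouse (points) by group, with the mean (line) and SD (bars). The groups with and without a tumor do not overlap for Csf2rb2, Pecam1, Actc1, Mstn, Mylpf and Idh3a, and overlap for S100a9 and Cd79a.

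Genes of the TCA cycle, which oxidizes acetyl-CoA in mitochondria, were mostly called lower. Of 16 genes of the TCA cycle, 12 were called lower and 0 higher, all 12 in the 4 scalings and 3 with the B cell covariate, with a median of -0.14, beside 5.55% lower over all genes, and 4 did not overlap. Idh3a, a subunit of isocitrate dehydrogenase, ranged from 340.4 to 419 TPM (median 384) in tumor-bearing and 422 to 474 TPM (median 449) in tumor-free mice and fell by 0.23 ± 0.04 (log2, SE, adjusted p = 0.00136). Suclg1, of succinyl-CoA ligase, was at 102 to 122 TPM (median 109) in tumor-bearing and 123 to 134 TPM (median 129) in tumor-free mice and fell by 0.22 ± 0.03 (log2, SE, adjusted p = 0.000644). Sucla2, its partner subunit, was at 197 to 245 TPM (median 225) in tumor-bearing and 246 to 277 TPM (median 256) in tumor-free mice and fell by 0.22 ± 0.04 (log2, SE, adjusted p = 0.00208). Pdha1, of pyruvate dehydrogenase, fell by 0.19 ± 0.04 (log2, SE, adjusted p = 0.00241).

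Of 38 nuclear genes of the respiratory chain, 21 were called lower and 0 higher (median -0.10), with 33 lower after median-ratio scaling and 0 with the B cell covariate. Uqcrc2, a core protein of complex III, was at 434 to 515 TPM (median 504) in tumor-bearing and 536 to 588 TPM (median 557) in tumor-free mice and fell by 0.18 ± 0.03 (log2, SE, adjusted p = 0.00182). Cox7a1, the muscle isoform of a complex IV subunit, fell by 0.25 ± 0.05 (log2, SE, adjusted p = 0.00164). The 2 sets of mice differed in size here: the list median was -0.21 in mock-injected and -0.01 in rFibcd1-injected mice, a difference that was not tested over the list. Of the 13 mitochondrially encoded genes, 10 were called lower. mt-Nd4l, of complex I, was at 14908 to 17035 TPM (median 16620) in tumor-bearing and 17301 to 20880 TPM (median 19675) in tumor-free mice and fell by 0.26 ± 0.04 (log2, SE, adjusted p = 0.000586), a call lost after quantile normalization. mt-Co1, of complex IV, differed by -0.09 ± 0.04 (log2, SE, adjusted p = 0.0605), and was not called, with an adjusted p of 0.0203 without Control + rFibcd1 replicate 1 and 0.031 without LLC + rFibcd1 replicate 1. It was called after median-ratio scaling (adjusted p = 0.0205), at a mean of at least 5 TPM and with sample weights. Over the list, 13 of 13 were called lower after median-ratio scaling and 1 after quantile normalization.

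Tfam, the factor that maintains mitochondrial DNA, fell by 0.15 ± 0.04 (log2, SE, adjusted p = 0.00537), from 16.2 to 17.5 TPM (median 17.1) in tumor-bearing and 17.3 to 21.4 TPM (median 18.8) in tumor-free mice. Ppargc1a, the coactivator PGC-1 alpha, was at 10.1 to 34.5 TPM (median 15.4) in tumor-bearing and 10.1 to 62.1 TPM (median 19.02) in tumor-free mice, a difference of -0.49 ± 0.33 (log2, SE, adjusted p = 0.231), and pointed opposite ways by injection, -1.34 ± 0.44 in mock-injected and 0.24 ± 0.28 in rFibcd1-injected mice (interaction, unadjusted p = 0.0106, adjusted p = 0.331, limma). Glycolysis and glycogen genes were called lower in 10 and higher in 3 of 22. Phkg1, of phosphorylase kinase, was at 62.1 to 79.6 TPM (median 74.3) in tumor-bearing and 82.8 to 98.4 TPM (median 87.9) in tumor-free mice, without overlap, and fell by 0.31 ± 0.05 (log2, SE, adjusted p = 0.00107). Pygm, the muscle phosphorylase it activates, fell by 0.15 ± 0.04 (log2, SE, adjusted p = 0.00867). Hk1, the hexokinase of most non-muscle cells, was at 5.26 to 7.66 TPM (median 6.31) in tumor-bearing and 3.36 to 5.097 TPM (median 4.15) in tumor-free mice and rose by 0.47 ± 0.07 (log2, SE, adjusted p = 0.000789), also without overlap.

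Of 22 genes of fat oxidation and fasting, 3 were called higher and 2 lower, beside 39.8% and 5.55% of all genes, and 2 were higher and 10 lower after either median-ratio or quantile scaling. Ucp2, a mitochondrial carrier also abundant in leukocytes, was at 23.2 to 52.98 TPM (median 34.2) in tumor-bearing and 12.6 to 33.6 TPM (median 15.9) in tumor-free mice and rose by 1.02 ± 0.19 (log2, SE, adjusted p = 0.00182). Angptl4, a lipase inhibitor induced by fasting, rose by 1.09 ± 0.36 (log2, SE, adjusted p = 0.023), a call lost without LLC replicate 1 or LLC + rFibcd1 replicate 2 (adjusted p = 0.0548 and 0.0531). Pdk4, which blocks pyruvate entry in fasting, was at 275 to 451 TPM (median 354) in tumor-bearing and 266 to 810.1 TPM (median 368) in tumor-free mice, a difference of -0.13 ± 0.20 (log2, SE, adjusted p = 0.598).

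The 2 ubiquitin ligases best known from muscle atrophy were not called. Fbxo32, atrogin-1, ranged from 71.8 to 174 TPM (median 98.5) in tumor-bearing and 61.5 to 93.1 TPM (median 79.1) in tumor-free mice, a difference of 0.33 ± 0.14 (log2, SE, adjusted p = 0.0686), and Trim63, MuRF1, from 75.2 to 198 TPM (median 116) in tumor-bearing and 65.1 to 134 TPM (median 84.00) in tumor-free mice, a difference of 0.42 ± 0.20 (log2, SE, adjusted p = 0.088). By injection, Fbxo32 differed by -0.04 ± 0.14 in mock-injected and 0.65 ± 0.17 in rFibcd1-injected mice, and Trim63 by -0.10 ± 0.17 and 0.86 ± 0.24 (interaction, adjusted p = 0.331 and 0.319, limma). Fbxo32 was called without LLC replicate 1 or 3 (adjusted p = 0.042 and 0.0404) and Trim63 without LLC replicate 1 (adjusted p = 0.0405). Of the 24 genes of that list, 7 were called higher, a smaller share than the 39.8% over all genes, and 1 lower. After median-ratio scaling 2 were higher and 4 lower, and after quantile normalization 2 and 6. Called higher in all 4 scalings were 2 genes. Syvn1, a ligase of the endoplasmic reticulum, rose by 0.62 ± 0.12 (log2, SE, adjusted p = 0.00204). Hgs, which sorts ubiquitinated cargo to lysosomes, rose by 0.36 ± 0.07 (log2, SE, adjusted p = 0.0017).

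Proteasome subunits were called higher in 20 of 25 with a median of 0.10, under that of all genes (0.14), and 0 of them in all 4 scalings. Psmb1, a core subunit, was at 169 to 198 TPM (median 178) in tumor-bearing and 139 to 163 TPM (median 150.1) in tumor-free mice and rose by 0.25 ± 0.04 (log2, SE, adjusted p = 0.00078), without overlap. Psmb4 rose by 0.16 ± 0.03 (log2, SE, adjusted p = 0.000778), with -0.01 after median-ratio scaling, where 3 members of the list were called lower. Of 21 autophagy genes 11 were called higher and 0 lower (median 0.14), 1 of them in all 4 scalings. That gene, Gabarap, which coats autophagosomes, was at 174 to 185 TPM (median 179.7) in tumor-bearing and 137 to 162 TPM (median 142) in tumor-free mice, without overlap, and rose by 0.30 ± 0.04 (log2, SE, adjusted p = 0.000238). Lamp1, of the lysosomal membrane, rose by 0.18 ± 0.03 (log2, SE, adjusted p = 0.000644), a call lost after median-ratio and quantile scaling.

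Lysosomal proteases rose, 13 of 15 higher and 0 lower (median 0.38), 7 in all 4 scalings and 2 with the B cell covariate. Ctss, the cathepsin of antigen-presenting cells, was at 28.9 to 102 TPM (median 83.9) in tumor-bearing and 12.5 to 85.8 TPM (median 25.2) in tumor-free mice and rose by 1.25 ± 0.36 (log2, SE, adjusted p = 0.012). Ctsa was at 33.1 to 42.4 TPM (median 38.9) in tumor-bearing and 27.6 to 35.8 TPM (median 29.7) in tumor-free mice and rose by 0.34 ± 0.05 (log2, SE, adjusted p = 0.000731). Ctsl, the cathepsin that muscle itself makes in atrophy, was at 152 to 190.5 TPM (median 164) in tumor-bearing and 119.6 to 152 TPM (median 137) in tumor-free mice and rose by 0.29 ± 0.06 (log2, SE, adjusted p = 0.00206), a call lost after median-ratio scaling.

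In the myostatin and activin pathway, 4 of 13 genes were called higher as deposited, beside 39.8% over all genes, and Mstn alone lower. After median-ratio scaling 3 were higher and 2 lower, and after quantile normalization 2 and 3. The inhibitor Fst, follistatin, was at 4.95 to 7.699 TPM (median 6.49) in tumor-bearing and 3.68 to 5.16 TPM (median 4.29) in tumor-free mice and rose by 0.46 ± 0.07 (log2, SE, adjusted p = 0.000724). Of the ligands, Inhbb, the activin B subunit, was at 1.72 to 3.08 TPM (median 2.38) in tumor-bearing and 0.695 to 2.38 TPM (median 1.07) in tumor-free mice and rose by 0.54 ± 0.14 (log2, SE, adjusted p = 0.00679), and Gdf11 rose by 0.38 ± 0.10 (log2, SE, adjusted p = 0.00806), a call lost after quantile normalization. Inhba, the activin A subunit, was not tested.

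Clock genes were called lower in 8 and higher in 2 of 16, and the list median was -0.09 in mock-injected and -0.49 in rFibcd1-injected mice. Arntl, which encodes the clock activator BMAL1, was at 3.14 ± 1.58 TPM in Control (SD, n = 5), 2.704 ± 0.502 TPM in Control + rFibcd1 (SD, n = 5), 3.87 ± 0.927 TPM in LLC (SD, n = 3) and 11.4 ± 3.76 TPM in LLC + rFibcd1 (SD, n = 4), and rose by 1.06 ± 0.24 (log2, SE, adjusted p = 0.00433) over both. Its difference was 0.29 ± 0.28 in mock-injected and 1.71 ± 0.19 in rFibcd1-injected mice (interaction, unadjusted p = 0.00106, adjusted p = 0.166, limma). Dbp and Tef, outputs of the clock, fell by 0.69 ± 0.17 (adjusted p = 0.00574) and 0.51 ± 0.11 (adjusted p = 0.00373), with -0.17 ± 0.13 and -1.12 ± 0.19 for Dbp by injection. Nr1d2, a clock repressor, differed by -0.40 ± 0.11 and -0.50 ± 0.09 and was at 30.7 to 41.1 TPM (median 37.6) in tumor-bearing and 41.6 to 62.5 TPM (median 48.3) in tumor-free mice, without overlap. The hour of dissection is not in the labels, and its part was not tested.

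Ribosomal protein genes were called higher in 27 of 28 (median 0.32), 22 of them in all 4 scalings, and many have near-identical pseudogenes that could share their reads. Rpl10 was at 41.6 to 54.2 TPM (median 48.9) in tumor-bearing and 32.3 to 41.5 TPM (median 36.1) in tumor-free mice, without overlap, and rose by 0.41 ± 0.06 (log2, SE, adjusted p = 0.000315). Rplp0 was at 721 to 846 TPM (median 812) in tumor-bearing and 627 to 726 TPM (median 663) in tumor-free mice and rose by 0.25 ± 0.03 (log2, SE, adjusted p = 0.00035), a call lost after median-ratio scaling. Proliferation genes were called higher in 14 of 15 (median 0.60), 1 with the B cell covariate. Mki67, the Ki-67 antigen of cycling cells, was low, at 0.5999 to 4.54 TPM (median 2.402) in tumor-bearing and 0.134 to 1.503 TPM (median 0.706) in tumor-free mice, and rose by 0.93 ± 0.24 (log2, SE, adjusted p = 0.00681), and Pcna, the replication clamp, rose by 0.33 ± 0.07 (log2, SE, adjusted p = 0.0029).

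Stress genes of the ATF4 program were called higher in 6 and lower in 0 of 14, close to the 39.8% higher over all genes, and 3 kept the call in all 4 scalings. Gdf15 and Fgf21 were below the filter. Slc3a2, a subunit of amino acid transporters, was at 21.4 to 33.8 TPM (median 29.4) in tumor-bearing and 12.6 to 24.8 TPM (median 16.9) in tumor-free mice and rose by 0.67 ± 0.11 (log2, SE, adjusted p = 0.00109). Cdkn1a, the cell cycle inhibitor p21, rose by 0.87 ± 0.25 (log2, SE, adjusted p = 0.0125), and Asns, asparagine synthetase, rose by 0.64 ± 0.22 (log2, SE, adjusted p = 0.0269), a call lost after median-ratio and quantile scaling and without LLC replicate 1 or 3 (adjusted p = 0.0761 and 0.0705). Of 23 glucocorticoid and FoxO targets, 2 were called higher and 1 lower, beside 39.8% and 5.55% of all genes. After median-ratio scaling 1 was higher and 4 lower, and after quantile normalization 1 and 5. Sat1, the rate-limiting enzyme of polyamine breakdown, was at 22.4 to 36.1 TPM (median 31.2) in tumor-bearing and 16.2 to 26.7 TPM (median 19.8) in tumor-free mice and rose by 0.53 ± 0.10 (log2, SE, adjusted p = 0.00213). Of denervation genes, Musk, the kinase of the neuromuscular junction, fell by 0.34 ± 0.10 (log2, SE, adjusted p = 0.0157) and Runx1 rose by 0.32 ± 0.07 (log2, SE, adjusted p = 0.00394), the latter call lost after quantile normalization, with 2 higher and 3 lower of 16 in all.

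Markers of other cells that dissection could carry along were measured beside these groups. All 8 red cell genes were called higher, and their sum ran from 14197 to 47001 TPM in tumor-bearing and 3867 to 20854 TPM in tumor-free mice. Hba-a1, alpha globin, rose by 1.16 ± 0.36 (log2, SE, adjusted p = 0.0175), with an adjusted p of 0.052 without LLC replicate 3, Alas2, the heme enzyme of red cells, rose by 1.30 ± 0.37 (log2, SE, adjusted p = 0.0121), and the membrane protein Slc4a1 rose by 1.01 ± 0.18 (log2, SE, adjusted p = 0.00146). Adipocyte genes were called in 2 of 14, and summed to 2423 to 11361 TPM in tumor-bearing and 2337 to 6127 TPM in tumor-free mice. Adipoq, adiponectin, ranged from 35.4 to 436 TPM (median 125) in tumor-bearing and 26.4 to 192 TPM (median 44.9) in tumor-free mice, a difference of 1.28 ± 0.51 (log2, SE, adjusted p = 0.0521) that was called without Control + rFibcd1 replicate 1 (adjusted p = 0.0125) and without any 1 of 4 other mice. Cfd, adipsin, was at 421 to 4167 TPM (median 1126) in tumor-bearing and 249.1 to 2009 TPM (median 329) in tumor-free mice and was called higher (adjusted p = 0.0296), a call lost when any 1 of 4 mice was left out, with an adjusted p of at most 0.0803. Mesothelial genes were called in 2 of 12, and summed to 99.3 to 443 TPM in tumor-bearing and 37.9 to 238 TPM in tumor-free mice. The defining markers Hba-a1, Alas2, Adipoq and Msln were above 0 in every mouse, and the part of these cells in the gene differences was not tested.

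Of the lists not yet described, members were called higher or lower as follows, beside 39.8% and 5.55% of all genes. Complement had 11 higher and 0 lower of 16, lymphoid stroma 7 and 0 of 8, and fibroadipogenic progenitors 4 and 0 of 11. Immediate early genes had 3 and 0 of 18, metallothioneins and zinc transporters 3 and 0 of 8, and polyamine metabolism 3 and 0 of 10. Metallothioneins and zinc transporters had 0 and 0 after median-ratio scaling and 1 and 1 after quantile normalization. Polyamine metabolism had 1 and 3 after either of these scalings. Heat shock genes and chaperones had 2 and 2 of 18, mitochondrial regulators around PGC-1 had 1 and 4 of 15, and myofiber identity genes 0 and 8 of 12.

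In the lists named next, fewer members kept their call in all 4 scalings than were called as deposited. Among immune lists, 11 of 16 called genes kept it for monocytes and macrophages, 8 of 12 for the interferon response, 12 of 15 for TNF and NF-kB, 7 of 8 for neutrophils, 12 of 14 for T and natural killer cells and 6 of 9 for plasma cells. It was 5 of 11 for complement, 7 of 9 for activated venules, 7 of 9 for matrix genes and 8 of 14 for proliferation. Of the lists with lower members, 19 of 21 kept it for the nuclear respiratory chain, 8 of 10 for calcium handling, 12 of 13 for glycolysis and glycogen and 9 of 10 for the clock. The B cell covariate left 5 clock genes, 3 matrix genes, 4 calcium handling genes, 2 glycolysis genes, 3 autophagy genes, 8 proteasome genes and 0 complement genes called.

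The same contrast was then made in 2 sets of mice that share no animal. In mock-injected mice (LLC against Control, 3 against 5), 5231 genes (39.3%) were called, 4446 higher (33.4%) and 785 lower (5.9%). In rFibcd1-injected mice (4 against 5), 304 (2.28%) were called, 243 higher (1.83%) and 61 lower (0.458%), with 2890 at an unadjusted p under 0.05. The balance changed with the scaling here too. In mock-injected mice 2222 genes were higher and 2274 lower after median-ratio scaling, and 1689 and 3461 after quantile normalization. In rFibcd1-injected mice 44 were higher and 35 lower after median-ratio scaling, and 36 and 47 after quantile normalization. As deposited, the count for mock-injected mice was 2471 without LLC replicate 3 and 3116 without LLC replicate 1. That for rFibcd1-injected mice fell to 6 when LLC + rFibcd1 replicate 1 or 3 was omitted and reached 905 when Control + rFibcd1 replicate 1 was. The 140 genes called in both made up 2.68% of the first list and 46.1% of the second, beside 2.28% and 39.3% of all genes called in the other set. Of these, 139 had the same sign and 126 the same sign relative to the median gene of each set. After median-ratio scaling 41 genes were called in both. Over all genes tested, 81.2% had the same sign in both sets, and 77% relative to the median gene of each. Of the 5231 genes called in mock-injected mice, 94.3% had the same sign in rFibcd1-injected mice, and 86.6% relative to the median. Their median absolute difference was 0.40 in the set that chose them and 0.23 in the other. Of the 304 genes called in rFibcd1-injected mice, 90.1% had the same sign in mock-injected mice, and 67.1% relative to the median. They had a median absolute difference of 0.45 in the set that chose them and 0.24 in the other.

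Dependence of the tumor difference on injection was tested directly, and 0 genes (0%) were called (interaction, limma). The gene nearest to a call had an adjusted p of 0.0588. Before adjustment, 1142 genes lay below 0.05 in that test. From 0 to 11 genes were called when 1 mouse was left out. With groups of 3 to 5 mice, the absence of calls does not show that the tumor difference was the same under both injections. Of the 24 leading genes, 24 were called in mock-injected mice and 17 in rFibcd1-injected mice, 9 of the 12 higher and 8 of the 12 lower, counts that the rule which chose them favors. Csf2rb2 differed by 1.72 ± 0.22 and 1.73 ± 0.31, and Sbno2 by 0.90 ± 0.07 and 0.91 ± 0.17. Actc1 differed by -1.12 ± 0.31 and -1.90 ± 0.27. Among the lists, lymphocyte genes were called in mock-injected mice (14 of 15 B cell genes) and not in rFibcd1-injected mice (0), beside 33.4% and 1.83% of all genes, with medians of 2.55 and 1.18, and endothelial genes in 5 and 4 of 14, with medians of 0.09 and 0.38. The medians over fast fiber genes were -0.23 and -0.38. These differences between sets of mice were not tested over the lists.

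**Figure D5:**
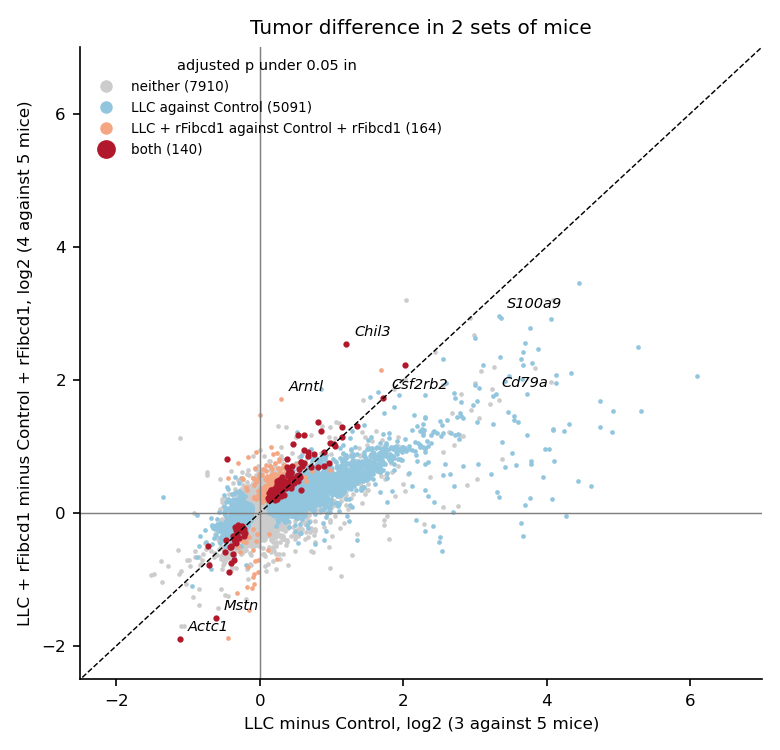
Tumor difference (log2) of each of 13305 genes in mock-injected mice (horizontal axis) and in rFibcd1-injected mice (vertical axis), colored by the comparison in which its adjusted p was under 0.05, with equality as the dashed line. Of the 140 genes called in both, 139 have the same sign, 126 relative to the median gene of each set, and the absolute difference was larger in mock-injected mice for 9394 of the 13305 genes.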

How the data were processed

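RNA of the diaphragm was sequenced from 17 mice, and groups came from the sample labels. The authors trimmed paired reads, aligned these to GRCm38 (mm10), obtained gene-level values with CLC Genomics Workbench and deposited them as TPM. The annotation release and the use of strand are not given in the sources used here. A table column was matched to each mouse by its name.

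Here, log2(TPM + 1) of the 13305 genes that reached 1 TPM in 3 or more mice was fitted with limma 3.58.1 (R 4.3.3) on tumor and injection, with a variance trend and Benjamini-Hochberg adjustment. Mock-injected and rFibcd1-injected mice were also fitted alone, and the interaction in all mice. The mean of 15 B cell genes served as a covariate in an alternative fit. TPM has passed through length and total scaling, so a count model was not used: of low values, 79.6% to 81.0% were whole reads (tolerance 0.02, against 4% at random). Of the symbols, 94.6% matched 1 position in GENCODE vM21. In data simulated for this comparison over 13305 genes, 36%, 66%, 96% and 100% of genes changed by 0.25, 0.5, 1 and 2 (log2) were recovered, with 6 unchanged genes called. The simulation changed few genes and drew normal noise separately for each gene. In the data 6032 genes were called, so these rates need not hold for the fit reported.

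Named genes were the 12 higher and 12 lower with the largest difference among called genes without overlap and with a mean of at least 5 TPM in either arm, leaving out immunoglobulin segments and unnamed models, and, in each of 46 lists, up to 4 tested members of smallest p and up to 2 defining members. The comparison and the lists were chosen with earlier results of these data known. Alternatives were other pseudocounts, filters, scalings and designs, a rank-sum test and leaving out each mouse. A member of the B cell list that the rule names is not reported here.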

Additional observations from a re-analysis of the deposited data

Results flagged for a closer look

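Of 417 groups of 4 or 5 mice examined for a value far from the others, 37 (8.87%) held one. The limits used mark about 1 in 20 among independent normal values. TPM of genes that vary together need not follow that rate, so no excess over it is read here. Groups of 3 were not examined. No result had groups that moved in opposite directions in every mouse, and no gene passed the interaction test in the fit reported.

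Control + rFibcd1 replicate 1 held 16 of the 37, each the highest of its group. They were Csf2rb at 6.33, Tmem173 at 7.71, Sbno2 at 11.6, Chil3 at 4.21, Adgre1 at 18.1, Cd79a at 55.4 and Ctss at 85.8 TPM, with Isg15 at 13.3, Ly6a at 173.7, Ucp2 at 33.6, Angptl4 at 10.5, Gabarap at 158.9, Rplp0 at 724.7, Asns at 6.90, Adipoq at 191.8 and Cfd at 2009 TPM. Leukocyte and adipocyte genes are thus both among them.

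Among the other Control + rFibcd1 mice, replicate 2 was highest for Slc7a2 (17.2 TPM) and Ppp1r3a (51.3 TPM), and replicate 3 for S100a8 (20.5 TPM) and Cxcr2 (1.13 TPM). In Control, replicate 1 was highest for Csf3r (1.202 TPM). Replicate 2 was highest for Ly6c2 (3.40 TPM), Jchain (237.5 TPM), Il1r1 (4.03 TPM) and the immunoglobulin share (1.21%), and lowest for Atp2a1 (5943 TPM). Replicate 3 was highest for Chil3 (0.793 TPM) and lowest for Tcap (5590 TPM).

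In LLC + rFibcd1, replicate 2 was highest for Adgre1 (10.1 TPM) and lowest for Atp2a2 (512 TPM), Dbp (47.0 TPM) and Tef (32.2 TPM). Replicate 3 was highest for Cd3e (4.86 TPM) and lowest for mt-Nd4l (14910 TPM). Replicate 4 was highest for Casq1 (676 TPM) and Ppargc1a (34.5 TPM), and replicate 1 for Nr1d2 (38.5 TPM).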

How the results depend on the processing

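With a B cell covariate 713 genes were called in place of 6032, and 2407 were called with the same sign in all 4 scalings. The other planned settings of that comparison gave 4075 to 7158 genes, and leaving out a mouse 4695 to 7033. The share of higher genes was 49.1% after median-ratio scaling, 70.5% without mitochondrially encoded genes and 35.3% after quantile normalization. The cause was not tested.

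LLC against Control gave 3377 genes at a mean of at least 5 TPM (fewer genes tested) and 2471 to 5770 without 1 mouse. LLC + rFibcd1 against Control + rFibcd1 gave 79 after median-ratio scaling, 138 without mitochondrially encoded genes, 83 after quantile normalization and 6 to 905 without 1 mouse. The interaction gave 1 gene without the filter, after median-ratio scaling and after quantile normalization, and 0 to 11 without 1 mouse. Genes without overlap numbered 315 to 548 without 1 mouse.

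With the replicate number as a block, the main comparison called 4087 genes and 0 of the 15 B cell genes (15 without the block), Tnf was not called (adjusted p = 0.0912), and the fits within mock-injected and rFibcd1-injected mice called 0 each (limma, 3592 and 1851 at an unadjusted p under 0.05). The numbers were not taken as pairs, because deviations of same-numbered mice correlated at -0.08 to 0.07 in mock-injected and -0.46 to 0.04 in rFibcd1-injected mice.

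Some genes turned sign. After median-ratio scaling these were Ifit1 (-0.0402), Cdh5 (-0.00927), Myh2 (-0.149), Myh4 (-0.151), Myh7 (-0.132) and Psmb4 (-0.00870). Without mitochondrially encoded genes they were Myh2 (-0.0640), Myh4 (-0.0666) and Myh7 (-0.0477). After quantile normalization they were Ifit1 (-0.148), Myh2 (-0.0497), Myh4 (-0.00660) and Myh7 (-0.0424). With the B cell covariate they were Adgre1 (-0.0263), Jchain (-0.373), Ifit1 (-0.107), Myh4 (-0.0729), Ppargc1a (0.0275) and Pdk4 (0.133). Sample weights turned Myh2 (-0.0503) and Myh7 (-0.0317), and the replicate block Myh4 (-0.0758). Without 1 mouse, Myh2 ranged from -0.0321 to 0.0563, Myh4 from -0.188 to 0.216 and Myh7 from -0.0283 to 0.129. Over all named genes, 2241 of 2295 values without 1 mouse and 1349 of 1460 under other settings kept direction and call. These genes were named in part for separation or a small p in the same data, which favors kept calls. Low TPM and 7 tumor-bearing mice limit the precision.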
